A study of Mus musculus with 20 samples.

Results

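The interleukin 1 receptor family is described here through 7 genes, Il1r2, Il1r1, Il1rl1, Il1rl2, Il1rap, Il18r1 and Il18rap, taken by symbol from a table of 45777 gene symbols. All 7 were found, and each had 1 row. Il1r2 was chosen because its RNA was higher after ABL503 than in Control, and the other members were chosen because they belong to its family. The ABL503 against Control contrast is therefore a description for every member and carries no test.

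RNA was sequenced from CD8+ T cells sorted out of MC38 tumours 4 days after treatment, in 20 libraries. The hosts of every group, Control included, were C57BL/6 mice carrying human PD-1, human PD-L1 and human 4-1BB. All tumours grew from a form of the mouse colon carcinoma line MC38 that overexpresses human PD-L1. The 4 groups of 5 libraries were Control, Pembrolizumab (an antibody that blocks PD-1), ABL503 (a bispecific antibody to PD-L1 and 4-1BB) and the Combination of pembrolizumab with ABL503. What the Control mice received, the doses, and the age and sex of the mice are not given in the sources used here. Since no label states whether each library is a different mouse, the p-values reflect only the scatter among these libraries, part of which may be technical.

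Members of the family are receptors for cytokines of the interleukin 1 group, and most carry a Toll/interleukin 1 receptor (TIR) domain inside the cell. A ligand-binding chain (IL1R1 for interleukin 1, ST2 for interleukin 33, IL1RL2 for interleukin 36, IL18R1 for interleukin 18) pairs with an accessory chain, IL1RAP or, for interleukin 18, IL18RAP, and the paired TIR domains recruit MyD88 and kinases of the IRAK family. IL1R2 binds interleukin 1 but lacks a TIR domain and is known as a decoy receptor, best described in neutrophils, macrophages and regulatory T cells. In CD8+ T cells the receptor for interleukin 18 is known to act with interleukin 12 to raise interferon gamma.

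Of the 7 members, 6 lie side by side on chromosome 1 (GRCm38, GENCODE vM21), all on the plus strand, over 477.6 kb. In order they are Il1r2 at chr1:40074079-40125231, Il1r1 at chr1:40225080-40317257 and Il1rl2 at chr1:40324610-40367562. They continue with Il1rl1 at chr1:40429570-40465415, Il18r1 at chr1:40465552-40500854 and Il18rap at chr1:40515362-40551705. Only 136 bases separate Il1rl1 from Il18r1. Il1rap lies apart at chr16:26581704-26730117, also on the plus strand. The longest coding sequence of Il1r2 has 1230 bases in 8 coding exons, against 1611 to 2055 bases for the other members. IL1R2 is known to end in a short cytoplasmic tail.

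Stretches at the starts of 3 members are shown because these neighbours on chromosome 1 stood at the high, the near-zero and the intermediate part of the levels described next. They are the plus strand of RefSeq's promoter windows on GRCm38.p6, cut to the bases outside annotated exons, at chr1:40085852-40085984 for Il1r2, chr1:40224830-40225079 for Il1r1 and chr1:40515112-40515361 for Il18rap. The Il1r2 stretch lies within the annotated gene, at the internal start that RefSeq gives. It also lies directly upstream of the antisense gene Gm16894, which is on the minus strand at chr1:40076228-40085851. Capitals mark the palindromic E-box CACGTG, a motif that was chosen after the Il1r2 sequence was seen.
Il1r2: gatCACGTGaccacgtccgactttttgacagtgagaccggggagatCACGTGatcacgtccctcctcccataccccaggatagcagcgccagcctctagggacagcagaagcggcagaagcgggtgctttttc
Il1r1: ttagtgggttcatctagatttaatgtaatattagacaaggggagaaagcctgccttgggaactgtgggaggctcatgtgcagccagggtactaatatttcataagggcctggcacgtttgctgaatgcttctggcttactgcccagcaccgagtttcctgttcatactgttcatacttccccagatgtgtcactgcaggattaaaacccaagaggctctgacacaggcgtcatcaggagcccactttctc
Il18rap: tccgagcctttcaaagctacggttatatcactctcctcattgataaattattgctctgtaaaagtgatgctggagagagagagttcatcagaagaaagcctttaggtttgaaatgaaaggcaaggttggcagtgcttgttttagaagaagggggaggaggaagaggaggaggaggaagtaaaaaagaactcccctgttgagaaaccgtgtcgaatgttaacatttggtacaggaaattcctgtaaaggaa

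The Il1r2 stretch held 2 matches to CACGTG, and the other 2 stretches held 0. Il1r1 has 2 promoter windows, and only the first listed was searched. Among 27025 promoter windows of 300 bases, 7.24% had at least 1 match on either strand and 0.625% had 2 or more. The AP-1 motif TGANTCA (7.93% of windows), searched on both strands, had 0 matches in the 300-base windows of these 3 genes. An NF-kB motif, found in 50.4% of all windows, also had 0 matches in the windows of these 3 genes. CpG pairs numbered 16 in the Il1r2 window, 5 in that of Il1r1 and 4 in that of Il18rap. A match describes letters and does not show that a factor binds there.

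Il1r2 RNA was abundant in these T cells and differed widely between groups, while the other members had overlapping groups, several of them near 0. In FPKM (fragments scaled by the length of the gene and by the size of the library), the 5 Control libraries stood at 37.5, 79.0, 38.8, 54.5 and 58.8. The Pembrolizumab libraries stood at 123, 58.6, 52.7, 63.6 and 113 FPKM. The ABL503 libraries stood at 338, 281, 353, 415 and 562 FPKM. Every ABL503 library was thus above every Control and every Pembrolizumab library. Il1r2 was chosen for its rise with ABL503, and the share of all genes with ABL503 above Pembrolizumab in this way was not counted. The Combination libraries stood at 185, 271, 86.0, 499 and 617 FPKM, which spans from within the Pembrolizumab range to the highest value of all 20.

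**Figure D1:**
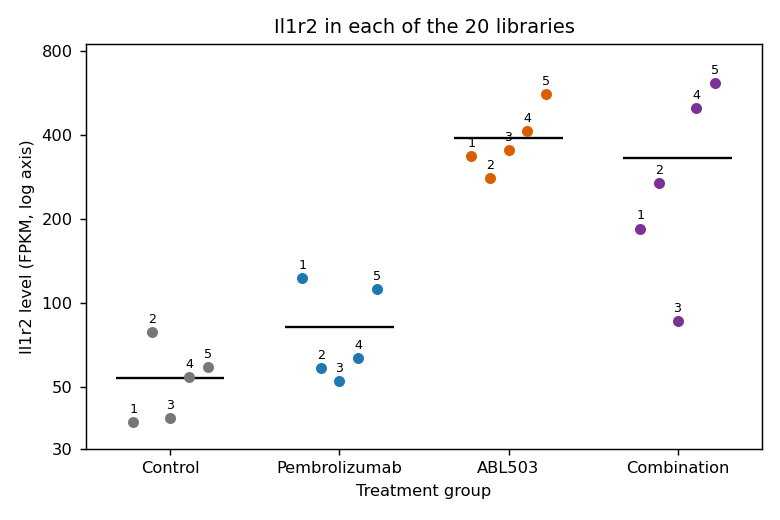
Il1r2 level in FPKM, on a log axis, in each of the 20 libraries by treatment group; each point is a library with its replicate number and each line is a group mean. The 5 ABL503 libraries sit between 281 and 562 FPKM, and the Combination spreads from 86.0 to 617.

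As means, Il1r2 stood at 53.7 ± 17.0 FPKM in Control (± SD over 5 libraries, here and below), 82.0 ± 32.9 with Pembrolizumab, 389.8 ± 108 with ABL503 and 332 ± 221 with both. The ABL503 mean was 7.26 times the Control mean, a log2 difference of 2.85 on the log2(FPKM + 1) scale used for all differences, which understates the change of low genes. The groups did not overlap, as held for 1.7% of all tested genes in the upward direction of that contrast. At an adjusted p under 0.05, 0.619% of the tested genes passed in ABL503 against Control, and nothing is read from Il1r2's place there since this contrast chose it. By mean FPKM within a group, Il1r2 ranked 1615 of 45777 genes in Control, 1126 with Pembrolizumab, 270 with ABL503 and 328 with both.

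Relative to its mean, Il1r2 was most scattered in the Combination. The coefficient of variation of Il1r2 was 31.6% in Control, 40.1% with Pembrolizumab, 27.6% with ABL503 and 66.6% with both. Combination library 3, at 86.0 FPKM, and Combination library 1, at 185, lay below all 5 ABL503 libraries, and library 2 lay below all 5 as well at 271. Combination library 5, at 617, lay above all of them.

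The comparison of the Combination with Pembrolizumab asked what ABL503 added to PD-1 blockade. The means compared use none of the libraries that chose Il1r2, but limma's SE, interval and p draw on the spread of all 20 libraries. Il1r2 averaged 4.04 times as high in the Combination, and 4 of its 5 libraries were above every Pembrolizumab library. The log2 difference was 1.77 (SE 0.39, 95% interval 0.95 to 2.60, or 1.94- to 6.04-fold). It missed the threshold in limma, with an unadjusted p of 0.000208 and a Benjamini-Hochberg adjusted p = 0.0595 over all 11794 genes tested. An exact two-sided permutation test over all splits of these 10 libraries, chosen after the data were seen and not adjusted, gave p = 0.0238, where the smallest p possible is 0.00794. Of the tested genes, 0.220%, Il1r2 included, differed by at least as much in absolute size. Combination library 3 decided the call: without it the difference was 2.18 and limma's adjusted p = 0.0057. Array weights also brought limma's adjusted p to 0.0387, and with no filter on low values it was 0.207. In a fit of only the groups compared, which leaves out the libraries that chose Il1r2, it was 0.185.

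In this comparison 0 of the 5 members tested passed an adjusted p under 0.05, against 0.161% of all genes tested. At an unadjusted p under 0.05, 1 member (Il1r2) and 1552 of all genes tested passed. Beside Il1r2, adjusted p for the members ran from 0.677 to 0.998.

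Set against Control, Il1r2 averaged 1.53 times as high in Pembrolizumab (log2 difference 0.57), and 2 of the 5 Pembrolizumab libraries, 1 and 5, were above every Control library. The Combination mean was 6.18 times the Control mean (log2 difference 2.34), with no overlap between the groups, as held upward for 4.42% of all tested genes. Set against ABL503, the Combination mean was 0.85 times as high (log2 difference -0.51), with wide overlap. These 3 contrasts share libraries with the contrast that chose Il1r2, so no test is given for it there.

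Neutrophils and other myeloid cells are known to carry Il1r2, so their markers were read beside it. The 8 neutrophil markers summed to between 0 and 0.554 FPKM in Control, 0.0731 and 1.20 with Pembrolizumab, 0.527 and 13.7 with ABL503, and 0.176 and 0.880 with both. Cxcr2 and Camp were listed at 0 in every library, and the sum of 13.7 came from ABL503 library 4, where S100a9 stood at 10.5 FPKM. The other 4 ABL503 libraries, with sums of 1.09 at most, had Il1r2 at 281 to 562 FPKM. The 10 macrophage and monocyte markers summed to 14.9 to 140 FPKM in Control, 26.4 to 81.2 with Pembrolizumab, 25.9 to 80.8 with ABL503 and 20.2 to 38.9 with both.

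Of the 10 markers of CD4+ and regulatory T cells, Cd4 was at most 0.630 FPKM and Foxp3 at most 1.79 FPKM in any library. Others were higher, such as Ctla4 at 118 to 256 FPKM, Tnfrsf4 at 212 to 490 and Il10 at 1.24 to 13.7. Activated CD8+ T cells are also known to express some of the list, such as Ctla4 and Tnfrsf18. The list's sum ran from 957 to 1420 FPKM in Control, 1067 to 1729 with Pembrolizumab, 1354 to 1729 with ABL503 and 1221 to 1639 with both. Of the 7 tested, Il10 alone passed in limma. It was lower in the Combination than in Control (-1.41, adjusted p = 0.00507) and than in ABL503 (-1.21, adjusted p = 0.0244), where 12.6% and 4.53% of all genes passed. The call against ABL503 ended without any of 5 of the 10 libraries. The 8 dendritic cell markers summed to 12.6 to 26.1 FPKM in Control, 14.3 to 23.1 with Pembrolizumab, 22.1 to 38.4 with ABL503 and 16.2 to 25.98 with both. Among them Zbtb46 stood at 1.72 to 5.13 FPKM in Control, 1.06 to 3.41 with Pembrolizumab, 5.87 to 8.38 with ABL503 and 4.32 to 8.85 with both. Of the 5 dendritic markers tested, Zbtb46 alone passed between the Combination and Pembrolizumab (1.23, SE 0.22, limma adjusted p = 0.0254). Of all genes tested, 0.161% passed there. The Zbtb46 call ended when any of 5 of the 10 libraries was left out. It also ended with no filter on low values or in a fit of only the groups compared. The other 4 differed the other way without passing, by -0.46 for Itgax, -0.34 for Batf3, -0.21 for Xcr1 and -0.02 for Siglech (adjusted p of 0.511 or more). Against Control, Xcr1 and Batf3 were higher in Pembrolizumab and Zbtb46 was higher in the Combination at an adjusted p under 0.05. Of all genes tested, 5.55% and 12.6% passed in these comparisons in turn. The Batf3 call ended for 4 of the 10 libraries and with no filter, and the Xcr1 call for 1 library. That for Zbtb46 ended for 5 of the 10 libraries, with no filter and with only the groups compared. The part of these cell types in the Il1r2 level was not tested. The 6 CD8+ T cell markers summed to 3744 FPKM or more in every library. In such bulk samples fewer cells of a type and less RNA per cell cannot be told apart.

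The receptor that signals for interleukin 1 was nearly missing beside its decoy. Il1r1 was listed at 0 in 10 of 20 libraries and reached 0.254 FPKM at most, in ABL503 library 4. By group it ran from 0 to 0.160 FPKM in Control, 0 to 0.0920 with Pembrolizumab, 0 to 0.254 with ABL503 and 0 to 0.125 with both. Il1r1 did not pass the filter of 1 FPKM in at least 5 libraries, and an exact permutation test of the Combination against Pembrolizumab gave p = 0.841. Il1r2 made up 99.6% to 100% of the summed FPKM of Il1r2 and Il1r1 in every library. That share had an exact permutation p = 0.325 between the Combination and Pembrolizumab (means 99.98% and 99.95%).

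The shared accessory chain Il1rap was low but present in all 20 libraries, at 1.19 to 3.98 FPKM. It averaged 1.98 ± 0.84 FPKM in Control, 2.57 ± 0.65 with Pembrolizumab, 2.77 ± 0.95 with ABL503 and 2.56 ± 0.62 with both, and the ranges of all 4 groups overlapped. Differences against Control were 0.28 for Pembrolizumab (95% interval -0.14 to 0.71) and 0.28 for the Combination (-0.14 to 0.70). An exon of Il1rap overlaps an exon of the annotated gene Gm20319, so reads there could be split. The table gives 1 value per gene, so membrane-bound and soluble forms of Il1rap, Il1rl1 and Il1r2 are not separated.

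The interleukin 33 receptor gene Il1rl1, which encodes ST2, stood at 1.31 ± 0.72 FPKM in Control, 0.837 ± 0.44 with Pembrolizumab, 0.809 ± 0.29 with ABL503 and 0.544 ± 0.33 with both. Control libraries stood at 1.70, 0.540, 0.686, 1.32 and 2.28 FPKM. The Combination libraries stood at 0.373, 0.349, 0.372, 0.498 and 1.13 FPKM. Of these, 4 were below every Control library, and library 5 was inside the Control range. The Combination minus Control difference was -0.54 (SE 0.22, 95% interval -0.995 to -0.09), which missed the threshold in limma (unadjusted p = 0.0201, adjusted p = 0.102). The 8 mast cell and basophil markers summed to 2.02 to 4.04 FPKM in Control and 0.776 to 2.60 with both. Of the 2 tested, Hdc alone passed in the Combination minus Control (-0.75, SE 0.19, limma adjusted p = 0.0143), where 12.6% of all genes did. The call ended in a fit of only the groups compared. The 8 markers of group 2 innate lymphoid cells had median sums of 80.2 and 70.8 FPKM in turn, with overlapping ranges. The part of these cells in the Il1rl1 level was not tested. Il1rl2, the interleukin 36 receptor chain, was lower still than Il1rl1. It ran from 0.191 to 0.535 FPKM in Control, 0.151 to 0.453 with Pembrolizumab, 0.172 to 1.01 with ABL503 and 0 to 0.537 with both, and had an exact permutation p = 0.651 between the Combination and Pembrolizumab.

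**Figure D2:**
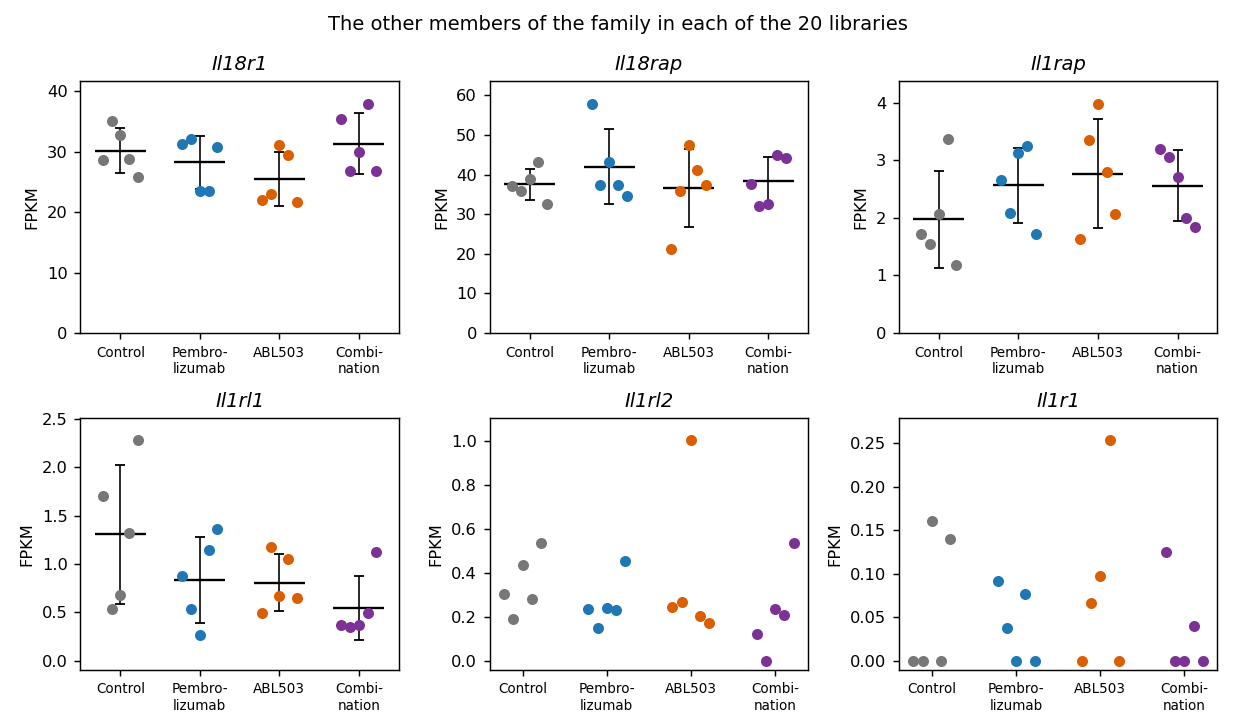
FPKM of the other 6 members in each of the 20 libraries, on linear axes; lines and bars are group means and SDs (n = 5), left out for Il1rl2 and Il1r1, which are listed at 0 in some libraries. Il18r1 and Il18rap stand between 21.1 and 57.8 FPKM in every library, and Il1r1 stays at or below 0.254.

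Both chains of the interleukin 18 receptor were expressed in every library. Il18r1, the ligand-binding chain, stood at 28.7, 35.1, 32.7, 28.8 and 25.8 FPKM in Control, and at 31.3, 32.05, 23.5, 23.5 and 30.7 in Pembrolizumab. ABL503 libraries stood at 21.997, 23.0, 31.2, 29.4 and 21.7 FPKM, and those of the Combination at 35.4, 26.8, 29.98, 37.9 and 26.7. All 4 groups overlapped, with means of 30.2 ± 3.67, 28.2 ± 4.32, 25.5 ± 4.49 and 31.4 ± 5.09 FPKM in that order. The Combination minus ABL503 difference of 0.29 (SE 0.13, 95% interval 0.01 to 0.57) missed the threshold in limma (unadjusted p = 0.0409, adjusted p = 0.220).

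Il18rap, the signalling partner of Il18r1, averaged 37.6 ± 3.86 FPKM in Control, 42.04 ± 9.38 with Pembrolizumab, 36.6 ± 9.79 with ABL503 and 38.3 ± 6.13 with both. Its lowest library was ABL503 library 1 at 21.1 FPKM and its highest Pembrolizumab library 1 at 57.8. The Combination minus Control difference was 0.02 (95% interval -0.34 to 0.38) and the Combination minus Pembrolizumab difference -0.12 (-0.48 to 0.24). The ratio of Il18rap to Il18r1 per library averaged 1.26 ± 0.17 in Control, 1.51 ± 0.35 with Pembrolizumab, 1.43 ± 0.29 with ABL503 and 1.24 ± 0.24 with both, and these ranges overlapped too. Ordered by mean level over all libraries, the members stood as Il1r2, Il18rap, Il18r1, Il1rap, Il1rl1, Il1rl2 and Il1r1. Within Control, Il1r2 overlapped with Il18rap (37.5 to 79.0 against 32.6 to 43.1 FPKM), Il18rap with Il18r1 (25.8 to 35.1) and Il1rap with Il1rl1 (1.19 to 3.37 against 0.540 to 2.28). The ranges of Il18r1 and Il1rap, of Il1rl1 and Il1rl2, and of Il1rl2 and Il1r1 did not overlap in Control.

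In the remaining comparisons 0 of the 4 members tested passed in limma. Against that, 5.55% of genes passed between Pembrolizumab and Control, 12.6% between the Combination and Control, and 4.53% between the Combination and ABL503. At an unadjusted p under 0.05, 0 members passed between Pembrolizumab and Control, 1 between the Combination and Control (Il1rl1) and 1 between the Combination and ABL503 (Il18r1). The counts over all genes at that limit were 2383, 3314 and 2411. Comparisons that share Control or Combination libraries are not independent of each other. The intervals for the members other than Il1r2 reached at most 0.71 upward and -0.995 downward on the log2 scale.

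**Figure D3:**
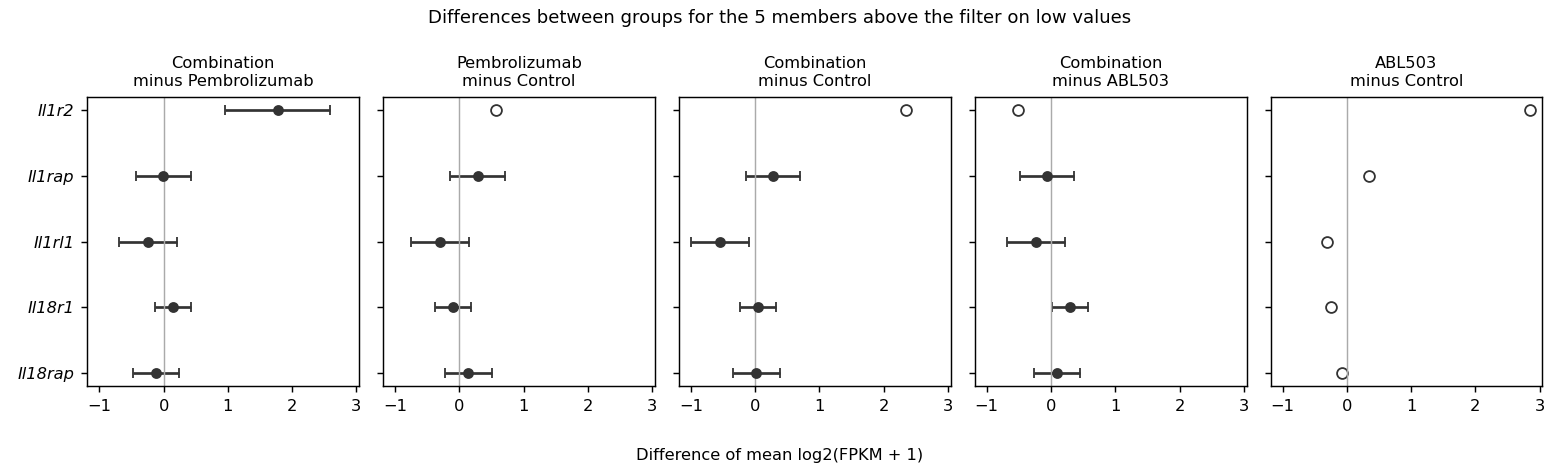
Differences of mean log2(FPKM + 1) for the 5 members above the filter on low values, in 5 comparisons; filled points with bars are tested values with 95% intervals, and open circles are described without a test. Il1r2 lies at 1.77 for the Combination minus Pembrolizumab and at 2.85 for ABL503 minus Control, while the other members lie between -0.54 and 0.34.

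The plot of the 6 clustered genes by position shows abundant Il1r2 RNA at the left end, low levels of Il1r1, Il1rl2 and Il1rl1 in the middle, and the interleukin 18 receptor genes, with overlapping groups, at the right end.

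**Figure D4:**
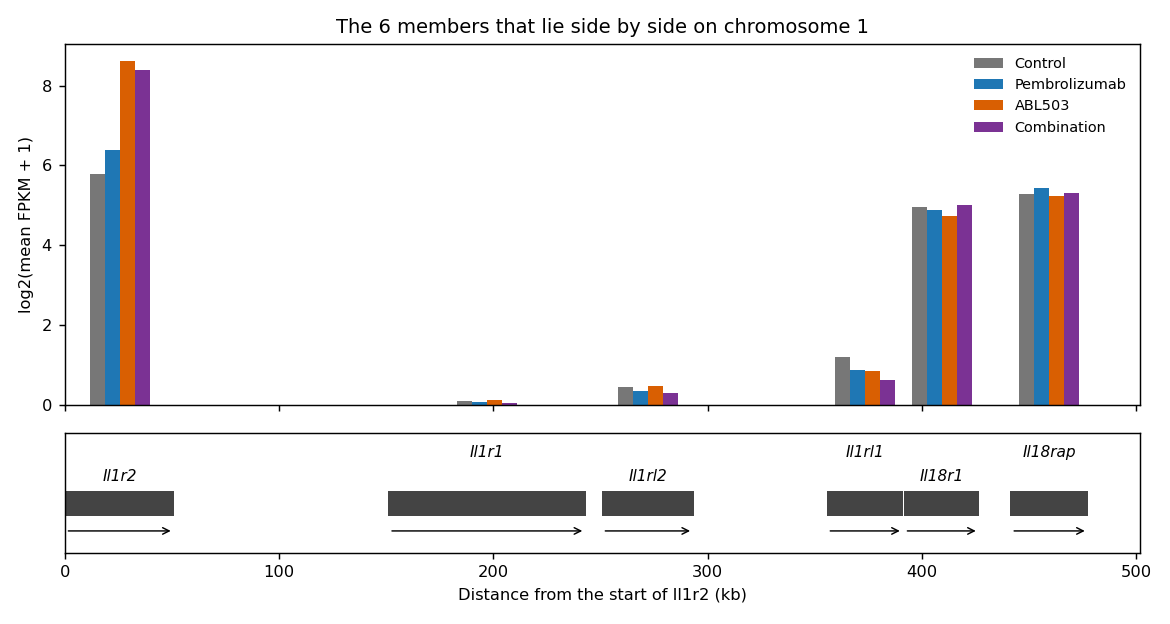
Level of the 6 members on chromosome 1 as log2(mean FPKM + 1), by treatment group, above a map of the genes in kb from the start of Il1r2; boxes are genes and arrows give the direction of transcription. Il1r2 has group means from 53.7 to 389.8 FPKM, and Il18r1 and Il18rap from 25.5 to 42.04 in all 4 groups.

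Within 500 kb of the cluster, 22 further genes are annotated, of which 16 are in the table, 2 passed the filter and 5 were listed at 0 in every library. Rnf149, which encodes a RING finger protein, averaged 54.7 FPKM in Control, 45.6 with Pembrolizumab, 60.3 with ABL503 and 39.4 with both. It was lower in the Combination than in Control (-0.47, SE 0.13, adjusted p = 0.0253) and than in ABL503 (-0.59, SE 0.13, adjusted p = 0.0146). Map4k4, a kinase of the MAP4K group whose gene starts 173 kb before Il1r2, was lower in the Combination than in Control (-0.77, SE 0.20, adjusted p = 0.0152). Of all genes tested, 12.6% passed between the Combination and Control and 4.53% between the Combination and ABL503. With 2 neighbours tested, nothing is read from these calls about the region. The call for Rnf149 against Control ended when any of 3 of the 10 libraries was left out and with no filter, and that against ABL503 without ABL503 library 2 (adjusted p = 0.0512). In the Combination against Pembrolizumab, Rnf149 had an adjusted p of 0.560 and Map4k4 of 0.413 in limma. The antisense gene Gm16894 lies within Il1r2 and stood at 0 to 1.22 FPKM. Whether reads were counted by strand is not given in the sources used here.

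The genes whose levels were most like those of Il1r2 were sought among the 4974 tested genes whose log2(FPKM + 1) averaged 3 or more, by Pearson's r over the 20 libraries. The points share the 4 treatment groups, and the depth behind them is unknown, so r is a description. The 5 nearest were Plscr1, a phospholipid scramblase induced by interferon (r = 0.91), Tnfsf4, the OX40 ligand (0.91), the granzyme gene Gzmc (0.89), the trefoil factor Tff1 (0.88) and Chmp5, an ESCRT-III component (0.88). Tnfsf4 stood at 1.121 to 7.32 FPKM in Control, 4.56 to 9.32 with Pembrolizumab, 20.1 to 32.5 with ABL503 and 11.3 to 23.5 with both. Plscr1 stood at 19.98 to 32.9 FPKM in Control, 24.1 to 35.8 with Pembrolizumab, 51.7 to 61.6 with ABL503 and 35.3 to 63.9 with both. For both, the ABL503 libraries lay above every Control and Pembrolizumab library, as for Il1r2. These genes were picked for their likeness to Il1r2 over the same libraries, so the shared pattern is built into the choice.

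After group means were subtracted, so that only the spread within groups counts, the nearest genes were others. They were Ndfip1, an adaptor of NEDD4-family ubiquitin ligases (r = 0.86), Reep3 (0.80), Rabgap1l (0.78), the chemokine gene Ccl1 (0.78) and Csf2, which encodes GM-CSF (0.78). These genes were picked for moving with Il1r2 within groups, so low values in the low Il1r2 libraries follow from the choice. As an illustration, Combination library 3 had 9.02 FPKM of Ccl1 and 7.51 of Csf2, against 191 and 56.2 in Combination library 5. Gzmc, from the search before group means were subtracted, stood at 90.7 and 604 FPKM in these libraries. Members were left out of this search. Over the 20 libraries their r with Il1r2 was -0.22 for Il1rl1, 0.12 for Il1rap, -0.13 for Il18r1 and 0.01 for Il18rap.

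**Figure D5:**
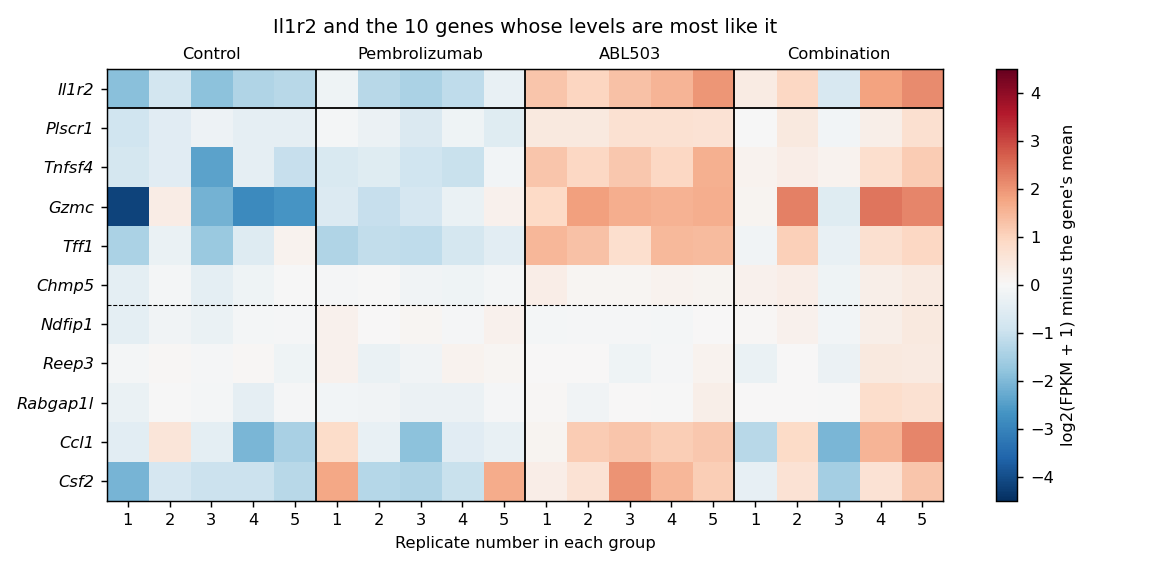
Levels of Il1r2 and 10 genes in the 20 libraries, as log2(FPKM + 1) minus each gene's mean; the 5 genes above the dashed line have the highest r with Il1r2 over all libraries (0.88 to 0.91), and the 5 below it after group means were subtracted (0.78 to 0.86). ABL503 libraries are high in the upper genes, and Combination library 3 is low in Il1r2, Gzmc, Ccl1 and Csf2. The genes were picked by r with Il1r2, so such shared patterns are built in.

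For the other members the nearest genes had lower r. Over the 20 libraries they were Rps6kb2, a ribosomal S6 kinase, for Il18r1 (r = 0.79), Mtmr2 for Il18rap (0.76), Srp68 for Il1rl1 (0.75) and Rcor1 for Il1rap (0.67). After group means were subtracted, the nearest gene to Il18rap was Rel, an NF-kB subunit (r = 0.84). The nearest were Gpr65 for Il1rl1 (0.78), Timp2 for Il18r1 (0.75) and Nop56 for Il1rap (0.73). Each was picked for the highest r among 4974 genes, so a high r is built into the choice.

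The ligands of the family were scarce in the sorted cells. Of 15 listed ligand and soluble inhibitor symbols, 11 are in the table and 3 (Il1b, Il1rn and Il18bp) passed the filter on low values. The symbols not found, Il36a, Il36b, Il36g and Il36rn, were listed beside their older forms Il1f6, Il1f8, Il1f9 and Il1f5. Those older symbols were found, at 0 in every library. Il1b, which encodes interleukin 1 beta, stood at 0.932 to 9.37 FPKM in Control, 0.207 to 1.94 with Pembrolizumab, 0 to 9.81 with ABL503 and 0 to 1.56 with both. Il1rn, the receptor antagonist, reached 3.66, 2.09, 4.95 and 0.185 FPKM at most in these groups. None of the 3 passed in limma in the 4 comparisons tested: the lowest adjusted p was 0.0534, for Il1b in the Combination minus Control (-1.56, SE 0.52). At an unadjusted p under 0.05, 0, 1, 1 and 2 of them were lower in the Combination minus Pembrolizumab, Pembrolizumab minus Control, the Combination minus Control and the Combination minus ABL503, and 0 were higher. Their median difference ran from -0.34 to -1.22. Il1b and Il1rn are known products of myeloid cells, whose marker sums are given above. The part of those cells in these values was not tested.

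Sigirr, a family member known to dampen signalling, averaged 10.1 ± 2.08 FPKM in Control, 11.3 ± 1.51 with Pembrolizumab, 9.66 ± 2.27 with ABL503 and 14.1 ± 2.22 with both. It missed the threshold against Control (0.45, SE 0.15, adjusted p = 0.0535) and against ABL503 (0.51, SE 0.15, adjusted p = 0.0549) in limma.

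Of 24 signalling adaptors and kinases, 22 were tested. Myd88, the adaptor of the pathway, averaged 58.2 ± 9.87 FPKM in Control and 52.1 ± 8.13 in the Combination. By limma 0 genes of the list rose in the 4 comparisons, and 2 of 22 were lower both in Pembrolizumab and in the Combination than in Control, where 5.55% and 12.6% of all genes passed in either direction. At an unadjusted p under 0.05, 2 were higher and 0 lower between the Combination and Pembrolizumab, 0 and 7 between Pembrolizumab and Control, 0 and 5 between the Combination and Control, and 1 and 4 between the Combination and ABL503. Both comparisons with Control use the same Control libraries. Map3k8, a kinase upstream of ERK, differed by -0.47 (SE 0.12, adjusted p = 0.0269) and -0.48 (SE 0.12, adjusted p = 0.0129) in turn. Mapk14, which encodes p38 alpha, differed by -0.37 in both (adjusted p = 0.0462 and 0.0291). The list's median difference was -0.21 in Pembrolizumab minus Control and -0.11 in the Combination minus Control, beside -0.03 and -0.04 for all genes.

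All 13 NF-kB targets and feedback genes were tested, and 0 rose in limma in the 4 comparisons. In Pembrolizumab against Control, where 5.55% of all genes passed, 3 of the 13 were lower: Birc3, an inhibitor of apoptosis (-0.61, SE 0.11, adjusted p = 0.00293), Nfkbie, an NF-kB inhibitor (-0.66, adjusted p = 0.0331) and Zc3h12a, which encodes the RNase regnase-1 (-0.61, adjusted p = 0.0414). In the Combination against Control, where 12.6% passed, 3 of the 13 were lower, Zc3h12a (-0.99, SE 0.17, adjusted p = 0.00106), Rel (-0.40, adjusted p = 0.0202) and Tnfaip3, which encodes the ubiquitin-editing enzyme A20 (-0.42, adjusted p = 0.0312). Rel was also the 1 gene of the list to pass between the Combination and ABL503, where 4.53% of all genes did, and was lower in the Combination (-0.55, SE 0.11, adjusted p = 0.00566). In the Combination against Pembrolizumab 0 of the 13 passed in limma, with 2 higher and 4 lower at an unadjusted p under 0.05. Median differences of the list ran from -0.15 to -0.23 over the 4 comparisons, beside -0.04 to 0.003 for all genes.

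The interleukin 12 and interleukin 18 axis had 9 genes, all tested. In Pembrolizumab against Control 4 rose and 1 fell, where 5.55% of all genes passed. Il2ra, the interleukin 2 receptor alpha chain, rose from 16.1 ± 1.73 to 35.1 ± 8.97 FPKM (1.05, SE 0.20, adjusted p = 0.00568). Il12rb2 of the interleukin 12 receptor (0.67, adjusted p = 0.0317), Ifng (0.61, adjusted p = 0.0339) and Gadd45b (0.47, adjusted p = 0.0414) rose, and Stat4, the transcription factor downstream of interleukin 12, fell from 136 ± 13.8 to 85.3 ± 7.97 FPKM (-0.66, SE 0.09, adjusted p = 0.000436). Stat4 was the 1 of the 9 to pass between the Combination and Pembrolizumab, where 0.161% of all genes did, and was higher in the Combination (0.47, SE 0.09, adjusted p = 0.0431), a call that ended when any of 8 of the 10 libraries was left out. In the Combination against Control 2 of the 9 passed, where 12.6% of all genes did: Il2ra rose (0.83, SE 0.20, adjusted p = 0.0121) and Tbx21, which encodes T-bet, fell (-0.58, SE 0.18, adjusted p = 0.038). Between the Combination and ABL503, 0 of the 9 passed in limma, with 1 higher and 1 lower at an unadjusted p under 0.05.

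Proteases that shed or process receptors, among them ADAM17, which is known to release IL1R2 from the cell surface, gave 1 call among 8 tested in the Combination against Control, where 12.6% of all genes passed, so the count is near that of all genes. None of the 8 passed in the other 3 comparisons, where at an unadjusted p under 0.05 1 was higher against Pembrolizumab, 1 was higher against ABL503 and 1 was lower in Pembrolizumab than in Control. Bace2 was listed at 0 to 0.462 FPKM in Control and stood at 0.196 to 2.03 in the Combination (0.82, SE 0.24, limma adjusted p = 0.0276). Its highest Pembrolizumab value was 0.400 FPKM, so it passed the filter only through ABL503 and Combination libraries. Those are the groups where it was high, so nothing is read from this p. Adam17 averaged 11.1 ± 1.72 FPKM in Control, 9.45 ± 0.95 with Pembrolizumab, 12.6 ± 1.502 with ABL503 and 11.0 ± 1.29 with both and did not pass in the 4 comparisons (adjusted p of 0.342 at the lowest).

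Glucocorticoids and STAT6 are known to induce Il1r2 in myeloid cells, and 9 of 10 listed genes of those responses were tested. Tsc22d3, the glucocorticoid-induced leucine zipper, fell from 87.6 FPKM in Control to 53.6 in Pembrolizumab (-0.70, SE 0.16, adjusted p = 0.015) and to 60.4 in the Combination (-0.56, SE 0.16, adjusted p = 0.0283). The clock gene Per1 (-0.67, adjusted p = 0.0291) and Gata3 (-0.47, adjusted p = 0.0423) were lower in the Combination than in Control. The list thus gave 1 of 9 and 3 of 9 genes past the threshold, beside 5.55% and 12.6% of all genes. By limma 0 genes of the list rose in the 4 comparisons (1 at an unadjusted p under 0.05 in each of the comparisons with Control). Between the Combination and Pembrolizumab, and between the Combination and ABL503, 0 passed, with 2 lower at an unadjusted p under 0.05 in each. Over these lists 24 calls passed, and 7 of them held with each library left out in turn and under each setting tried. These were Birc3, Il2ra and Stat4 in Pembrolizumab against Control, Zc3h12a, Map3k8 and Il2ra in the Combination against Control, and Rel against ABL503. Tsc22d3 in Pembrolizumab against Control held without each library but ended with no filter on low values, and Rel in the Combination against Control ended for 3 of the 10 libraries. The other calls ended for at least 5 of the 10 libraries and under at least 1 setting. No filter ended 16 of the 24, and a fit of only the groups compared ended 14. Both ended the calls for Ifng, Il12rb2, Gadd45b, Nfkbie, Map3k8, Mapk14 and Zc3h12a in Pembrolizumab against Control. They also ended those for Gata3, Per1, Mapk14, Bace2, Tbx21 and Tsc22d3 in the Combination against Control and for Stat4 in the Combination against Pembrolizumab. No filter ended that for Tnfaip3 too. Quantile normalization ended the calls for Ifng, Gadd45b and Mapk14 in Pembrolizumab against Control, for Tnfaip3 in the Combination against Control and for Stat4 in the Combination against Pembrolizumab. Equal sums ended that for Gadd45b and array weights that for Mapk14, both in Pembrolizumab against Control. A fit with no intensity trend ended those for Gadd45b, Mapk14 and, between the Combination and Pembrolizumab, Stat4.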

How the data were processed

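RNA was measured in 20 libraries made with the SMART-Seq v4 Ultra Low Input kit, as the labels state. Alignment with HISAT2 and quantification with StringTie on GRCm38 (mm10) come from the submitters' processing notes; versions and annotation are not given in the sources used here. The deposited values were taken to be FPKM, made by the authors with StringTie per those notes. The table names no unit, and FPKM was inferred because values are not whole numbers and column sums ran from 575918 to 654333. Since read depth is unknown, counting error could not be given.

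limma 3.58.1 (R 4.3.3) was fitted to log2(FPKM + 1) of the 11794 genes at 1 FPKM or more in at least 5 libraries, with 1 mean per group, 16 residual degrees of freedom and an intensity trend. Tests were two-sided, and the threshold was an adjusted p of 0.05 (Benjamini-Hochberg over all genes tested within a comparison). Of 7 members, 5 passed the filter. Members below it and the share of Il1r2 were compared by exact permutation. The steps were tested on simulated data. Python 3.11.15, pandas 2.3.3, SciPy 1.17.1 and matplotlib 3.10.9 made summaries and figures.

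The members and gene lists were chosen with earlier results of these data known. The rule for named genes took all members, up to 4 genes past the threshold per list or otherwise the genes with the smallest p, neighbours within 500 kb that passed, and the 5 genes most like each member. Genes named outside it (Myd88, Adam17 and the markers) were chosen by role or after their values were seen. Alternatives included quantile normalization, equal column sums, array weights, a block for the replicate number, a fit with no intensity trend and a fit to the compared groups alone. Others were a pseudocount of 0.1, testing every gene without a filter, a threshold of 0.1 and leaving out each library.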

Additional observations from a re-analysis of the deposited data

Results flagged for a closer look

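Among 36 sets of 5 values, 4 had a library whose gap to the nearest other, divided by the range of its group, was above 0.71; chance gives about 1 in 20. Il1rl1 in Combination library 5 stood at 1.13 FPKM, against 0.349 to 0.498 in the other 4. Il1rl2 in ABL503 library 3 stood at 1.01 FPKM, against 0.172 to 0.270 in the others. The share of Il1r2 in Il1r2 plus Il1r1 was 99.93% in Combination library 1, where the next lowest was 99.99%. The ratio of Il18rap to Il18r1 was 1.65 in Combination library 5, and the next highest was 1.20.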

How the results depend on the processing

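Il1r2 in the Combination minus Pembrolizumab kept its direction under every alternative run. It passed with array weights (1.76, adjusted p = 0.0387), with the replicate number as a block (1.77, adjusted p = 0.0400) and at an adjusted p under 0.1 (1.77), which made 1 member past the threshold under each of these 3. Without a filter its adjusted p was 0.207, and with only the groups compared 0.185. Leaving out each library in turn gave differences from 1.47 to 2.18, adjusted p from 0.0057 to 0.162, and 0 to 1 members past the threshold; the exact permutation p ran from 0.00794 to 0.0476. With pairs of equal number flipped, the exact permutation p of 1.77 was 0.0625, the smallest it can give. Deviations from group means of libraries of equal number had correlations from -0.15 to 0.11 (median 0.026, 2 of 30 over 0.1). Those of other numbers ran from -0.12 to 0.17 (median -0.0016, 4 of 120 over 0.1). Such correlations cannot show whether equal numbers share a sample or its handling, which the labels do not state. The block changed no other member's call. Among the 24 list calls it ended 4 (Gadd45b and Mapk14 in Pembrolizumab minus Control, Gata3 in the Combination minus Control, Stat4 in the Combination minus Pembrolizumab). In place of the share, the log2 ratio of (Il1r2 + 1) to (Il1r1 + 1) differed by 1.79 (exact permutation p = 0.0238). With Il1r1 near 0, that ratio nearly repeats the Il1r2 level, which differed by 1.77 with the same exact permutation p. It therefore does not show a change of the share. Small member differences changed sign, and the cause was not tested. For Il1rap in the Combination minus Pembrolizumab they were 0.017 with quantile normalization, 0.0012 with equal sums, 0.020 with array weights and -0.094 to 0.076 leaving out a library. Against ABL503, Il1rap was 0.0014 with quantile normalization and -0.18 to 0.048 leaving out a library, and Il18rap -0.085 to 0.20. Against Control, the Combination had Il18rap at -0.022 with equal sums and -0.041 to 0.079 leaving out a library, and Il18r1 at -0.023 to 0.10. Between the Combination and Pembrolizumab, Il1r1 ran from -0.043 to 0.0052 and Il1rl2 from -0.15 to 0.0085 in the same way. Of all genes tested, 19 passed in the Combination minus Pembrolizumab, but 3 with no filter, 85 with array weights, 12 with no intensity trend, 3 with only the groups compared, 99 at 0.1 and 6 to 49 leaving out a library. Pembrolizumab minus Control had 655, but 321 with no filter, 395 with only the groups compared, 1154 at 0.1 and 383 to 706 leaving out a library. The Combination minus Control had 1484, but 939, 2295 at 0.1 and 957 to 1659. The Combination minus ABL503 had 534, but 271 with no filter, 935 with array weights, 1063 at 0.1 and 263 to 747. ABL503 minus Control had 73, but 42 with no filter and 40 to 72.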
